A study of Arabidopsis thaliana with 12 samples.

Results

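The late embryogenesis abundant (LEA) genes and dehydrins described here were 5 named Arabidopsis thaliana genes, each measured by a probe set of its own among 22810 on the Affymetrix ATH1 array. They were the LEA genes AT3G02480, LEA4-5 (AT5G06760) and AT3G17520, and the dehydrin genes LTI30 (AT3G50970) and COR47 (AT1G20440). The 5 genes were chosen by gene identity with earlier results of these data known, as was the LEA family list used below. All 5 were among the 15923 probe sets that passed a filter on low values, and they belong to a wider LEA family in which 35 genes had a probe set of their own.

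LEA proteins are very hydrophilic proteins that accumulate in seeds as these dry and in vegetative tissue under drought, cold or abscisic acid (ABA), the plant's water-stress hormone. Dehydrins are the LEA group that carries the lysine-rich K-segment, through which several members bind membranes. In the textbook pathway, ABA binds its receptors, protein phosphatases are held off, SnRK2 kinases are released, and bZIP factors then activate genes of this kind.

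The study asked how ROP10, a small GTPase of plants known to restrain ABA responses, shapes the ABA transcriptome. Seedlings of the rop10-1 mutant and of its wild type Ws were grown for 7 days in shaken liquid medium and then treated for 4 h with 1 µM ABA or with DMSO as the mock. The 4 groups were therefore rop10-1 with ABA, Ws with ABA, rop10-1 mock and Ws mock, with 3 arrays each and 12 in all, and the design text calls the replicates biological. The mutant was a single allele, and RNA came from whole seedlings, so that more transcript per cell and more cells that express a gene cannot be told apart. No probe set was assigned to ROP10 alone, and the mutation was not checked on the arrays.

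Each array had been scaled by the submitters' software to nearly the same trimmed mean, 500.04 to 500.05 signal units, and the median signal lay between 180.15 and 203.3. Signal is a linear brightness of a probe set, so levels are compared here between arrays and never between genes. Differences are given on the log2(signal + 16) scale with a standard error (SE) and were tested with limma in a single model of all 12 arrays. A gene was called changed at a Benjamini-Hochberg adjusted p under 0.05 over all 15923 probe sets tested.

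Of the seedling markers, the photosynthesis genes LHCB4.1 and LHCB4.2 averaged 12159 and 2887 in rop10-1 with ABA, against 11691 and 3388 in rop10-1 mock. The root hair genes EXPA7 and EXPA18 and the stomatal lineage gene FAMA were measured as well, and these 5 markers showed no called change with ABA in either genotype. The remaining marker, the guard cell gene AT1G22690, averaged a signal of 500.0 in rop10-1 with ABA and 1371 in rop10-1 mock, a called fall of -1.49 (SE 0.30, limma adjusted p = 0.0104), and 706 in Ws with ABA against 1225 in Ws mock (-0.84, SE 0.30, limma adjusted p = 0.135, and called at 0.0419 in a fit blocked on replicate number). The log2 ratio of 3' over 5' signal of the ubiquitin control, a measure of RNA integrity and labelling, was 0.81 ± 0.088 in rop10-1 with ABA, 0.71 ± 0.063 in Ws with ABA, 0.88 ± 0.037 in rop10-1 mock and 0.97 ± 0.14 in Ws mock (SD, n = 3 each). The part of AT1G22690-expressing cells or of RNA integrity in the LEA results was not tested. The reference genes PEX4, AT4G34270 and SAND had no called change with ABA in either genotype.

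All 5 genes rose with 1 µM ABA in both genotypes, and for each the 3 ABA arrays lay above the 3 mock arrays of the same genotype. The share of tested probe sets called higher was 4.03% in rop10-1 and 4.05% in Ws. ABA arrays lay wholly above mock arrays for 12.8% of tested probe sets in rop10-1 and 9.64% in Ws. The 3 LEA genes passed the filter only through their ABA arrays, since their mock means were under the cut of 67.1 signal units. The count of 5 therefore describes these genes and is no support for a direction of the family.

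**Figure D1:**
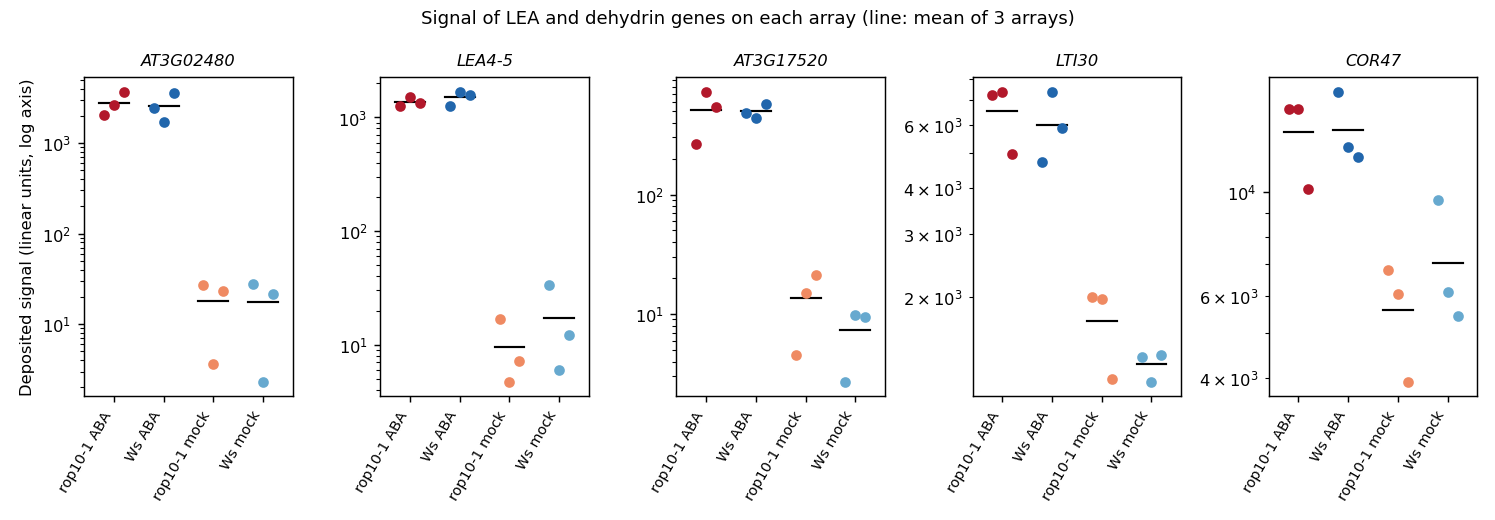
Signal of the 5 genes on each of the 12 arrays, with a panel per gene and a logarithmic vertical axis of its own; dots are arrays and lines are group means (n = 3). ABA arrays lie above mock arrays in every panel, by a wide gap for the 3 LEA genes on the left and a narrow one for COR47.

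AT3G02480 encodes a small protein of the LEA_4 type, a group with a repeated helical motif. Its signal was 2035.2, 2661.8 and 3700.8 in rop10-1 with ABA, against 27.4, 3.6 and 23.3 in rop10-1 mock. In Ws it was 2433.9, 1708.5 and 3540.6 with ABA, against 28.0, 2.3 and 21.8 in mock. Mock seedlings of both genotypes were at the bottom of the signal scale, and the lowest ABA array exceeded the highest mock array in each genotype many times over. The array numbered 2 was the lowest in both mock groups.

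The ABA difference of AT3G02480 was 6.41 in rop10-1 (SE 0.39, 95% interval 5.55 to 7.26, limma adjusted p = 2.08e-06) and 6.30 in Ws (SE 0.39, 95% interval 5.45 to 7.16, limma adjusted p = 2.76e-06). With mock signals this low the size depends on the constant added before the logarithm. With 1 added it was 7.53 in rop10-1 and 7.56 in Ws, and with 64 added 5.10 in rop10-1 and 4.97 in Ws.

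LEA4-5 encodes an LEA_1 type protein, one of a small group that protects enzymes from drying in the test tube. In rop10-1 its signal was 1272.5, 1523.9 and 1335.8 with ABA, against 16.9, 4.7 and 7.2 in mock. In Ws it was 1270.8, 1686.9 and 1570.8 with ABA, against 33.2, 6.0 and 12.1 in mock. The ABA arrays of LEA4-5 were close together, with an SD of 131 around 1377 in rop10-1 and 215 around 1510 in Ws (n = 3 each), while the array numbered 1 stood highest in both mock groups.

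The rise of LEA4-5 with ABA was 5.79 in rop10-1 (SE 0.26, 95% interval 5.22 to 6.36, limma adjusted p = 3.27e-07) and 5.60 in Ws (SE 0.26, 95% interval 5.03 to 6.17, limma adjusted p = 2.48e-07). Adding 1 or 64 before the logarithm gave 7.19 and 4.29 in rop10-1, and 6.68 and 4.28 in Ws.

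AT3G17520, a further gene of the LEA_4 type, had signals of 263.3, 725.6 and 535.3 in rop10-1 with ABA, against 4.5, 15.0 and 21.1 in rop10-1 mock. In Ws the values were 479.6, 438.8 and 572.5 with ABA, against 2.7, 9.8 and 9.5 in mock. The groups did not overlap, and the array numbered 1 was the lowest in both rop10-1 groups. The ABA difference was 4.08 in rop10-1 (SE 0.32, 95% interval 3.38 to 4.78, limma adjusted p = 1.39e-05) and 4.47 in Ws (SE 0.32, 95% interval 3.76 to 5.17, limma adjusted p = 9.97e-06). It ranged from 2.80 to 5.23 in rop10-1 and from 2.97 to 6.05 in Ws over the added constants 64 and 1.

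Both dehydrins had mock signals far above the filter's cut. LTI30, a basic dehydrin known from low-temperature induction and from binding membranes through its K-segments, had 7239.2, 7404.1 and 4968.4 in rop10-1 with ABA, against 2003.1, 1977.5 and 1193.2 in rop10-1 mock. In Ws it had 4729.3, 7371.7 and 5867.8 with ABA, against 1371.6, 1167.8 and 1385.1 in mock. The lowest ABA array still stood clear of the highest mock array in each genotype.

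LTI30 rose by 1.93 in rop10-1 (SE 0.23, 95% interval 1.43 to 2.42, limma adjusted p = 0.000262) and by 2.16 in Ws (SE 0.23, 95% interval 1.67 to 2.66, limma adjusted p = 0.000113). These are 3.81-fold and 4.48-fold in linear terms.

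COR47, an acidic dehydrin known from cold and drought induction, was far above the filter's cut on every array. Its signal was 15092.6, 15086.0 and 10167.3 in rop10-1 with ABA, against 6794.7, 6042.9 and 3921.3 in rop10-1 mock. In Ws it was 16405.6, 12496.1 and 11893.6 with ABA, against 9625.2, 6102.5 and 5432.1 in mock. The groups were separate but near each other, and the arrays numbered 1 were highest and those numbered 3 lowest in all 4 groups.

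The difference of COR47 was 1.28 in rop10-1 (SE 0.25, 95% interval 0.73 to 1.83, limma adjusted p = 0.00901) and 0.98 in Ws (SE 0.25, 95% interval 0.43 to 1.53, limma adjusted p = 0.0385), or 2.43-fold and 1.97-fold. The call in Ws was close to the threshold. It was lost with no filter on low values (limma adjusted p = 0.065), with quantile normalization (0.0531) and when only the 6 Ws arrays were fitted (0.061). It was also lost without Ws mock 2 (0.89, limma adjusted p = 0.14), Ws mock 3 (0.81, 0.12), Ws ABA 1 (0.83, 0.12), Ws ABA 2 (1.03, 0.0794), Ws ABA 3 (1.07, 0.0624) or rop10-1 mock 2 (0.98, 0.0515). In the blocked fit, which takes up the replicate number, the SE of the Ws value was 0.12 and the limma adjusted p 0.000192.

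Replicate numbers were shared by the groups, so the ABA response could also be read within each number. For COR47 the 3 within-number differences were 1.15 to 1.37 in rop10-1 and 0.77 to 1.13 in Ws. For LTI30 they were 1.85 to 2.04 in rop10-1 and 1.77 to 2.64 in Ws. For AT3G02480 they were 5.56 to 7.09 in rop10-1 and 5.80 to 6.56 in Ws. Number 1 gave the smallest difference of AT3G02480, LEA4-5, LTI30 and COR47 in both genotypes. LEA4-5 spanned 5.29 to 6.22 in rop10-1 and 4.71 to 6.27 in Ws, and AT3G17520 spanned 3.77 to 4.58 in rop10-1 and 4.14 to 4.73 in Ws.

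**Figure D2:**
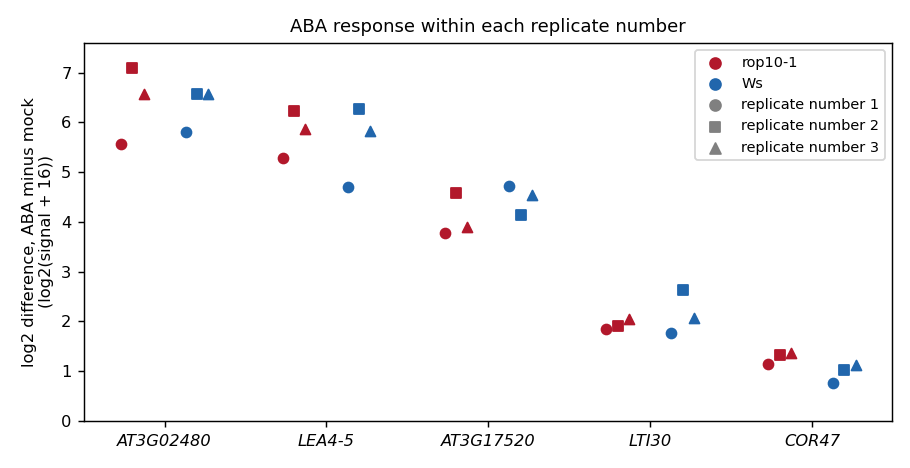
ABA minus mock difference on the log2(signal + 16) scale within each replicate number, for rop10-1 and Ws; each symbol is a pair of arrays with the same number. All 30 differences are above 0, with the 3 LEA genes at 3.77 or more and COR47 between 0.77 and 1.37.

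The wider LEA family was followed with a list of 51 genes sorted by protein class, of which 35 had a probe set assigned to them alone in the annotation used. The other 16 genes had none there, and of 10 listed dehydrins 6 had one. The counts below leave out the genes without one, which the array may still measure. Only 13 of the 35 passed the filter on low values. Of the other 22, 19 stayed under a signal of 100 on every array and 9 stayed under 25. Because a filter on the mean can admit a low gene only through its ABA arrays, the family was counted in the fit without a filter, which tested all 22746 probe sets that were not controls.

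Without the filter, 11 of the 35 family genes were called higher and 0 lower with ABA in rop10-1, and likewise 11 and 0 in Ws by limma. COR47 was called in rop10-1 and not in Ws in this fit, and the dehydrin gene LEA in Ws and not in rop10-1. The share of all probe sets called higher was 2.78% in rop10-1 and 2.72% in Ws. The median ABA difference of the family was 0.32 in rop10-1 and 0.42 in Ws, against -0.051 and -0.025 over all probe sets. Leaving out the 5 genes described above, 6 of 30 were called higher in rop10-1 and 7 of 30 in Ws. Their medians were 0.22 in rop10-1 and 0.32 in Ws.

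By class, all 3 genes of the LEA_1 type, 5 of 16 of the LEA_4 type, 2 of 6 dehydrins and 1 of 4 unclassed genes were called higher in each genotype. No gene was called of the 2 LEA_2, the 2 LEA_3 and the 2 seed maturation protein genes. In the blocked fit without a filter, 14 of 35 were called higher in rop10-1 and 16 of 35 in Ws, against 5.25% and 5.22% of all probe sets.

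**Figure D3:**
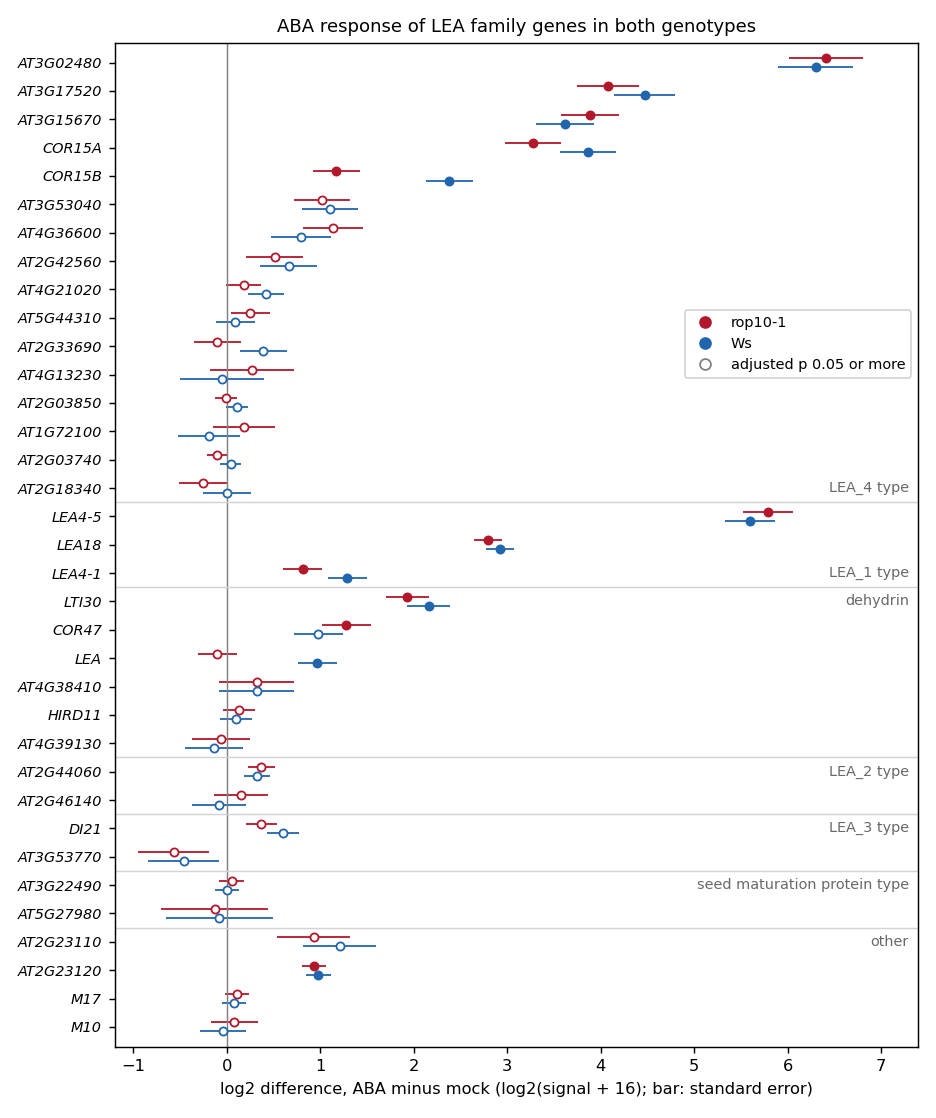
ABA minus mock difference, log2(signal + 16), for the 35 LEA family genes with a probe set of their own, by protein class, from the fit without a filter; bars are standard errors and filled symbols have an adjusted p under 0.05. AT3G02480 and LEA4-5 lie farthest to the right in both genotypes, and 18 genes with no call in either genotype or in their average lie between -0.57 and 0.66.

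Among the LEA_1 genes LEA18 (AT2G35300) had 98.4, 109.2 and 102.4 in rop10-1 with ABA, against 0.8, 0.9 and 2.1 in rop10-1 mock. In Ws it had 140.8, 98.5 and 123.3 with ABA, against 1.1, 0.9 and 4.1 in mock. LEA18 was thus near 0 without ABA, so that the size of its difference is set by the 16 added before the logarithm. With that constant the differences were 2.79 in rop10-1 (SE 0.15, limma adjusted p = 1.96e-06) and 2.92 in Ws (SE 0.15, limma adjusted p = 1.52e-06).

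The third LEA_1 gene, LEA4-1 (AT1G32560), had 43.7, 48.9 and 57.9 in rop10-1 with ABA, against 27.3, 15.3 and 23.0 in rop10-1 mock. In Ws it had 49.0, 30.6 and 34.7 with ABA, against 12.4, 4.7 and 1.7 in mock. All of these signals were under the filter's cut. The difference was 0.81 in rop10-1 (SE 0.21, limma adjusted p = 0.0498) and 1.29 in Ws (SE 0.21, limma adjusted p = 0.00383), and the mock arrays of rop10-1 were all above those of Ws.

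In the LEA_4 class AT3G15670 was also at the bottom of the scale without ABA. It had 160.9, 321.8 and 347.4 in rop10-1 with ABA, against 3.6, 2.6 and 2.1 in rop10-1 mock, and 193.3, 351.9 and 318.3 in Ws with ABA, against 6.0, 2.9 and 17.3 in Ws mock. The array numbered 1 was the lowest with ABA in both genotypes. Its differences, whose size also depends on the added 16, were 3.89 in rop10-1 (SE 0.31, limma adjusted p = 3.74e-05) and 3.62 in Ws (SE 0.31, limma adjusted p = 5.45e-05).

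COR15A and COR15B, which encode chloroplast proteins of cold acclimation, are counted in this class. They rose by 3.28 and 1.17 in rop10-1 and by 3.86 and 2.38 in Ws (limma adjusted p = 0.0221 or less, no filter). AT3G53040 had 1.02 in rop10-1 and 1.10 in Ws (limma adjusted p = 0.0938 and 0.0713), and AT4G36600 had 1.14 and 0.79 (0.0785 and 0.238). Both were called in the blocked fit without a filter, with adjusted p = 0.0185 and 0.00313 in rop10-1 and 0.0129 and 0.0199 in Ws. All arrays of both genes were under 100 signal units.

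Of the other 4 dehydrins with a probe set, none was called with ABA in rop10-1 and only LEA was called in Ws. HIRD11, a small histidine-rich dehydrin, ranged from 4053.2 to 5074.1 in rop10-1 with ABA and from 3813.1 to 4370.2 in rop10-1 mock, with a difference of 0.13 (95% interval -0.25 to 0.50, limma adjusted p = 0.748). In Ws it was 4590.6 to 5619.4 with ABA and 3623.8 to 6113.5 in mock, a difference of 0.10 (95% interval -0.27 to 0.47, limma adjusted p = 0.818). AT4G38410 had 0.32 in each genotype with intervals from -0.54 to 1.18, and was not called. It was higher with ABA in all 6 pairs of arrays with the same number, and the intervals in the blocked fit were -0.07 to 0.70 in rop10-1 and -0.06 to 0.71 in Ws (limma adjusted p = 0.263 and 0.252). Other family genes were also higher in all 6 pairs, among them AT4G21020 at signals of only 1.0 to 16.9. The share of all probe sets that did so was not counted. AT4G39130 stayed between 13.6 and 55.6 on all arrays. Each of these intervals includes 0.

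The dehydrin listed as LEA (AT2G21490) had its lowest arrays in Ws mock. Its signal was 24.6, 34.4 and 26.7 in rop10-1 with ABA and 24.9, 38.4 and 32.6 in rop10-1 mock. In Ws it was 24.3, 49.2 and 19.7 with ABA, against 6.8, 7.1 and 7.5 in mock, so that only the Ws mock arrays stood apart. ABA gave -0.10 in rop10-1 (SE 0.21, limma adjusted p = 0.876) and a called 0.97 in Ws (SE 0.21, limma adjusted p = 0.0231). The difference between those responses was -1.08 (95% interval -1.73 to -0.42), with an unadjusted p of 0.00393 and a limma adjusted p of 1.0, so that it was not called. All of its signals lay under the filter's cut.

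Outside these classes AT2G23120 was far above the filter's cut on every array. It had 6781.3, 5783.2 and 5102.9 in rop10-1 with ABA, against 3090.7, 3219.7 and 2903.3 in rop10-1 mock. In Ws it had 5948.0, 6339.8 and 5091.8 with ABA, against 2673.8, 3042.4 and 3026.5 in mock. The groups did not overlap, and the differences were 0.93 in rop10-1 (SE 0.13, limma adjusted p = 0.000777) and 0.98 in Ws (SE 0.13, limma adjusted p = 0.00049). AT2G23110, its neighbour in the list, had 0.93 in rop10-1 and 1.21 in Ws without a filter (limma adjusted p = 0.256 and 0.125).

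DI21, a drought-induced gene of the LEA_3 type, had 348.4, 478.5 and 437.0 in rop10-1 with ABA, against 266.3, 373.6 and 326.3 in rop10-1 mock. In Ws it had 352.9, 341.0 and 261.8 with ABA, against 187.3, 212.5 and 210.7 in mock. The groups overlapped in rop10-1 and were separate in Ws, where the difference was 0.60 (SE 0.17, limma adjusted p = 0.0531, and 0.0147 with the replicate block), against 0.37 in rop10-1 (SE 0.17, limma adjusted p = 0.247). The LEA_2 gene AT2G44060 had 0.37 in rop10-1 and 0.32 in Ws, not called in the model without the block (limma adjusted p = 0.146 and 0.207) and called with it (0.00702 and 0.0147). In the blocked fit with the filter, 8.11% of tested probe sets were called higher in rop10-1 and 7.91% in Ws. AT2G46140, also of the LEA_2 type, had 0.15 in rop10-1 and -0.08 in Ws (limma adjusted p = 0.83 and 0.916).

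**Figure D4:**
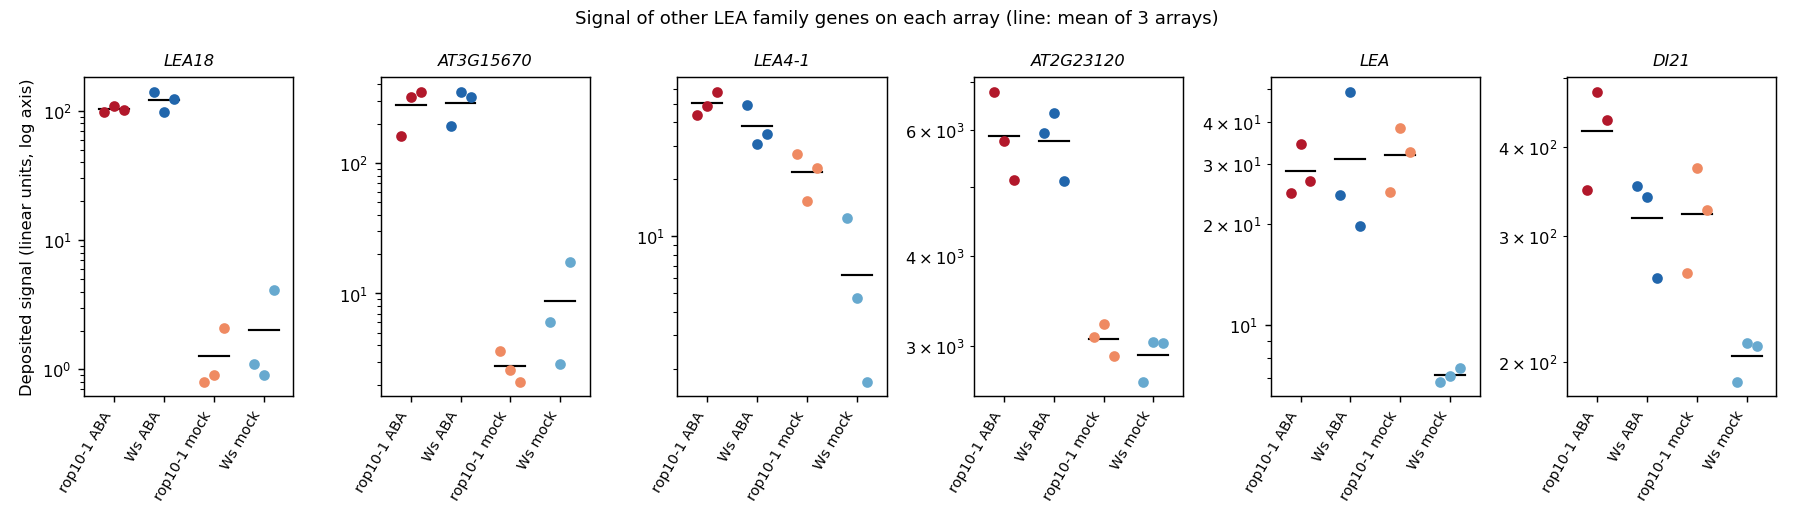
Signal of 6 other LEA family genes on each of the 12 arrays, with a panel per gene and a logarithmic vertical axis of its own; dots are arrays and lines are group means (n = 3). ABA and mock arrays are far apart for LEA18 and AT3G15670, and for the dehydrin LEA only the Ws mock arrays, at 6.8 to 7.5, stand apart.

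The next comparison asked whether rop10-1 changed these genes with ABA present. None of the 5 was called, where 0.0188% of tested probe sets were called in all and 7.16% had an unadjusted p under 0.05. For every one of the 5 the rop10-1 and Ws arrays overlapped, while the arrays were separate for 10.9% of tested probe sets. The differences, rop10-1 minus Ws, were 0.15 for AT3G02480 (95% interval -0.71 to 1.00), -0.12 for LEA4-5 (-0.70 to 0.45) and -0.07 for AT3G17520 (-0.77 to 0.63). They were 0.13 for LTI30 (-0.37 to 0.62) and -0.02 for COR47 (-0.57 to 0.52), with limma adjusted p from 0.956 to 0.994. These intervals depend on the added constant for the 3 LEA genes. With 1 added they were -1.57 to 1.87 for AT3G02480, -1.21 to 0.96 for LEA4-5 and -1.27 to 1.11 for AT3G17520.

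In mock seedlings 0.0314% of tested probe sets were called, and none of the 5 was among them. The differences of rop10-1 minus Ws were 0.05 for AT3G02480 (95% interval -0.81 to 0.90), -0.31 for LEA4-5 (-0.89 to 0.26) and 0.31 for AT3G17520 (-0.39 to 1.01). LTI30 had 0.36 (-0.14 to 0.86) and COR47 -0.33 (-0.88 to 0.22), with limma adjusted p from 0.996 to 1.0. The mock means of the 3 LEA genes were under the filter's cut, so their differences depend on the added constant. With 1 added these were 0.18 for AT3G02480 (-1.54 to 1.90), -0.64 for LEA4-5 (-1.72 to 0.45) and 0.74 for AT3G17520 (-0.46 to 1.93). The arrays overlapped for all 5, where 9.40% of tested probe sets had separate arrays. Within replicate numbers, COR47 was lower in rop10-1 in 3 of 3 pairs, by -0.50 to -0.01, and LEA4-5 in 3 of 3, by -0.58 to -0.09. AT3G17520 was higher in 3 of 3 pairs, by 0.13 to 0.54, and the remaining genes went both ways. The share of all probe sets with 3 of 3 pairs in the same direction was not counted. These pair counts are therefore no support for a genotype difference. With the block, the interval of COR47 was -0.59 to -0.07, and its adjusted p of 0.457 left it uncalled.

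The size of the ABA response was then compared between genotypes. No tested probe set passed for this difference (0.0% called by limma, with 1.89% at an unadjusted p under 0.05, and 0 called with the replicate block as well). The response in rop10-1 minus that in Ws was 0.10 for AT3G02480 (95% interval -1.10 to 1.31), 0.19 for LEA4-5 (-0.62 to 1.00) and -0.38 for AT3G17520 (-1.38 to 0.61). It was -0.23 for LTI30 (-0.94 to 0.47) and 0.30 for COR47 (-0.47 to 1.08), each with a limma adjusted p of 1.0. In this fit without the block, the interval of AT3G02480 reaches past 1 in both directions, and those of AT3G17520, LEA4-5 and COR47 reach 1 or more in one direction. With the replicate block the intervals were narrower. They were -0.67 to 0.87 for AT3G02480, -0.58 to 0.96 for LEA4-5 and -1.09 to 0.32 for AT3G17520. For LTI30 the blocked interval was -0.83 to 0.36, and for COR47 -0.07 to 0.67. The intervals of the 3 LEA genes also depend on the constant added before the logarithm. With 1 added and no block they were wider, at -2.47 to 2.41 for AT3G02480, -1.02 to 2.04 for LEA4-5 and -2.50 to 0.87 for AT3G17520.

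**Figure D5:**
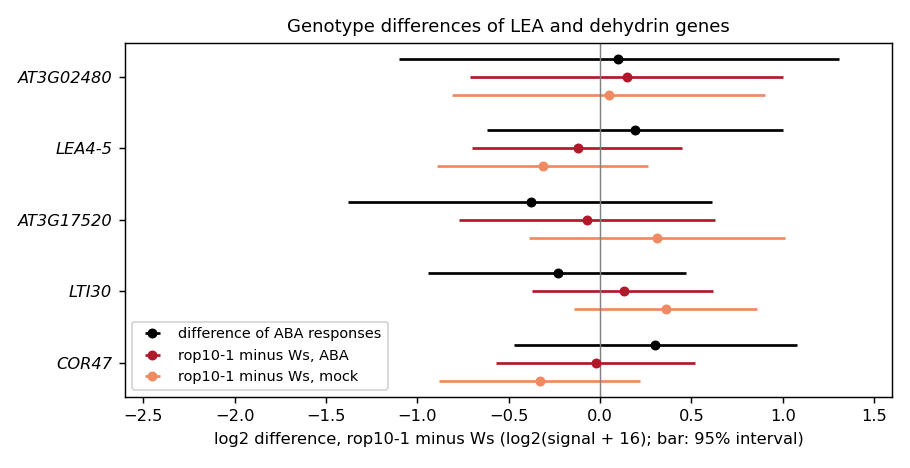
Differences of rop10-1 minus Ws for the 5 genes on the log2(signal + 16) scale, under ABA, in mock and as the difference between the ABA responses; bars are 95% intervals. In this fit without the replicate block every interval includes 0, and those of the response difference are the widest. With the block the mock interval of COR47 was -0.59 to -0.07, and the gene was not called.

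Across the rest of the family the genotype calls by limma were also 0 in the fit without a filter, in mock, under ABA and for the difference of responses, where 0.0132%, 0.0176% and 0.0% of all probe sets were called. In mock, 3 of 35 genes had an unadjusted p under 0.05, as did 4.27% of all probe sets, namely the dehydrin LEA (1.04, limma adjusted p = 0.628), LEA4-1 (0.78, adjusted p = 1.0) and DI21 (0.61, adjusted p = 1.0). All 3 had rop10-1 mock arrays wholly above the Ws mock arrays, as 5.60% of all probe sets did. They were picked by their p in this same comparison, so the separate arrays are no added support. Under ABA 2 of 35 had an unadjusted p under 0.05, a share near the 6.32% of all probe sets. They were COR15B (-1.16, limma adjusted p = 0.381) and DI21 (0.39, adjusted p = 0.778). With the replicate block and the filter, COR15B was called under ABA (adjusted p = 0.0391), where 0.27% of tested probe sets were. DI21, averaged over both treatments, was 0.50 higher in rop10-1 (limma adjusted p = 0.277, and 0.0402 with the block, where 1.43% were called). These 2 calls are from the fit with the filter, where the block called 43 probe sets under ABA and 227 in the average. Without the filter the blocked fit called only 6 and 8. The difference of responses had 2 of 35 family genes at an unadjusted p under 0.05, where 2.67% of all probe sets had one. They were COR15B (-1.21) and the dehydrin LEA, each with a limma adjusted p of 1.0.

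Likeness of pattern was described by Pearson's r of log2(signal + 16) over the 12 arrays, which share the ABA contrast and the replicate numbers. Among the 5 genes r lay between 0.807 for AT3G17520 with COR47 and 0.991 for AT3G02480 with LEA4-5. The nearest genes were sought among tested probe sets assigned to a single gene, with the 5 genes left out. Nearest to AT3G02480 were AT3G22620 and AT1G05340 (r = 0.994 each) and AT4G33550 (r = 0.992). Nearest to LEA4-5 were AT2G41190 (0.994), AT1G19970 (0.989) and AT2G37870 (0.988), and nearest to AT3G17520 were AT4G33550 (0.987), COR15A (0.985) and AT1G49450 (0.984).

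The dehydrins had other nearest genes. LTI30 was closest to GPDHC1, a glycerol-3-phosphate dehydrogenase (0.978), AT1G50630 (0.970) and AT1G02816 (0.968). COR47 was closest to MTP11, a metal transporter (0.971), AT5G09620 (0.969) and ARPN, a blue copper protein (0.968). The ABA differences of these 6 genes were 0.86 to 1.23 in rop10-1 and 0.89 to 1.31 in Ws, against 1.59 to 4.31 and 1.70 to 3.90 for the 8 genes nearest to the LEA genes.

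The genes next to these loci on the chromosome, taken from the order of genes in RefSeq's annotation, were looked up where a probe set was named for them. Beside AT3G02480, SAMDC, a polyamine synthesis enzyme, had -0.03 in rop10-1 and -0.16 in Ws, and AT3G02490 had -0.18 and -0.10. AT5G06770 beside LEA4-5 had -0.14 in rop10-1 and -0.05 in Ws, and AT1G20430 beside COR47 had -0.24 and 0.00. None of these 4 neighbours was called with ABA in either genotype (limma adjusted p from 0.28 to 0.992), where 6.54% of tested probe sets were called in each. No probe set was named for AT5G06755 beside LEA4-5, ERD10 beside COR47, CIPK1 and AT3G17530 beside AT3G17520, or PLP3a and XERO1 beside LTI30. The neighbours of AT3G17520 and LTI30 were thus not measured here.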

How the data were processed

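RNA of the 12 seedling samples was hybridised to ATH1 arrays. Values were deposited as linear signal intensity made with GCOS 1.1.1, per the submitters' processing notes, and the authors' scaling to a common trimmed mean is seen in the values; that 2% of probe sets are trimmed at each end was tested on the files. Probe sets were named from GEO's platform annotation: 13513 had 1 gene, 503 several and 8730 none listed, and only the first kind was named.

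The 64 control probe sets and the lowest 30% by mean log2(signal + 16) were left out. limma 3.58.1 in R 4.3.3 fitted 4 group means with an intensity trend. A check on simulated data put changes only into Ws with ABA and read only the ABA response in Ws. It did not cover the genotype comparisons or the difference of responses. The number of arrays limits the precision. Replicate numbers pair the arrays: deviations from group means correlated at 0.215 to 0.711 between all 18 same-numbered pairs and at -0.475 to 0.11 between 36 others, so that a blocked fit was run as well. The other alternatives were the added constant, the filter, centring, normalization and leaving out arrays.

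The genes, the LEA family list and the markers were chosen with earlier results of these data known. The genes named were the 5, all family genes measured, and the 3 genes nearest in pattern to each. Of lists of 17 other ABA and cold genes and 10 seed storage genes no gene had a probe set assigned to it alone in the annotation used. Of 16 ABA and cold transcription factors only EEL had one, at -0.14 in rop10-1 and -0.18 in Ws with ABA, not called. That annotation listed no gene for 8730 probe sets, so these counts do not show which genes the array lacks.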

Additional observations from a re-analysis of the deposited data

How the results depend on the processing

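Of the 5 genes' ABA responses, none changed sign under any alternative run. In rop10-1 and in the average of both genotypes none lost its call, and in Ws only COR47 did, with the values given above. Leaving out the lowest 50% of probe sets left 3 of the 5 genes called in each of these comparisons, because LEA4-5 and AT3G17520 were then not tested. Leaving out 1 array at a time moved the ABA difference of COR47 in Ws between 0.81 and 1.22. The replicate block moved the number of all tested probe sets called with ABA to 2486 in rop10-1 and 2495 in Ws, against 1041 and 1042 without it, that of rop10-1 against Ws to 43 under ABA and 7 in mock, against 3 and 5, and changed no call of the 5 genes. It moved the SE of COR47 in Ws to 0.12, against 0.25.

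Genotype differences of the 5 genes were uncalled throughout, and some changed sign when 1 array at a time was left out; the ranges over these fits follow. In mock they were -0.34 to 0.40 for AT3G02480 and -0.57 to 0.01 for LEA4-5. Under ABA they were -0.11 to 0.41 for AT3G02480, -0.38 to 0.33 for AT3G17520, -0.12 to 0.16 for COR47 and -0.03 to 0.31 for LTI30. In the average of both treatments they were -0.10 to 0.28 for AT3G02480 and -0.03 to 0.32 for AT3G17520. The difference of responses ran from -0.26 to 0.49 for AT3G02480, from -0.14 to 0.44 for LEA4-5 and from -0.69 to 0.01 for AT3G17520. Beyond single arrays, AT3G02480 changed sign in mock with quantile normalization (-0.0013) and in the difference of responses with 1 added (-0.03). Apart from the effect of fewer arrays or genes, the cause was not tested.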

Other observations

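Within the groups, several family genes followed the replicate number. COR47, HIRD11, AT4G38410 and AT2G44060 had their lowest signal on the array numbered 3 in all 4 groups. They were 4 of the 13 family genes tested (30.8%), against 651 of all 15923 tested probe sets (4.09%). COR47, AT4G38410 and AT2G44060 also had their highest signal on the array numbered 1 in all 4 groups. COR15A and COR15B went another way, with their lowest signal on the array numbered 1 in each group. These genes were singled out after their values were seen.

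AT4G38410, a dehydrin, had 414.2, 356.2 and 247.4 in rop10-1 with ABA, 623.0, 377.5 and 263.0 in Ws with ABA, 342.4, 266.2 and 199.8 in rop10-1 mock and 612.1, 256.0 and 193.3 in Ws mock, so that both array 1 values of Ws exceeded every other value.

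The family also held genes at the bottom of the signal scale on these arrays. The 9 genes under 25 on every array, among them the LEA_4 genes AT2G03740, AT2G03850 and AT4G21020, the seed maturation gene AT3G22490 and the seed-type genes M17 and M10, lay between 0.2 and 22.9 over all 12 arrays. None of the 9 was called with ABA.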
